A study of Mus musculus with 6 samples.

Results

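The CCN family of secreted growth regulators was examined in infarcted left ventricles of mice through the RNA of its 6 members, *Ctgf* (*Ccn2*), *Cyr61* (*Ccn1*), *Wisp2* (*Ccn5*), *Wisp1* (*Ccn4*), *Nov* (*Ccn3*) and *Wisp3* (*Ccn6*). The members were chosen by gene name, by a rule that uses no measured value but with earlier results of these data known, and are 6 of the 17556 genes listed. Of these, 5 were among the 13817 genes with enough counts for a test, and *Wisp3* was not. Whole left ventricles were sampled 4 days after injury (4 dpi) and their RNA was sequenced in bulk, in 3 Cre-positive and 3 Cre-negative ventricles. All 6 ventricles came from siblings aged 6 to 10 weeks that carried floxed *Yap* on both alleles and floxed *Wwtr1* on a single allele (*Yap* fl/fl;*Wwtr1* fl/+). All had permanent ligation of the left anterior descending artery, which produces a myocardial infarction, and were then given tamoxifen citrate in the diet. Cre-positive mice also carried *Postn* MCM, a MerCreMer recombinase that tamoxifen activates, placed under the *Postn* promoter at its own locus, whereas Cre-negative siblings had wild-type *Postn*. The comparison asks how RNA of the injured ventricle differs when *Yap* and *Wwtr1* are depleted in myofibroblasts. The model acts only in cells that express *Postn*, so other cells of the ventricle keep their floxed alleles, and no uninjured heart or Cre-only control was analysed here. The labels do not say that each ventricle is a separate mouse, and the p-values below measure only the spread between these 6 samples.

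CCN proteins are matricellular proteins, which are secreted into the extracellular matrix and modify signaling there without forming its fibers. They share modules that resemble IGF-binding proteins, von Willebrand factor type C repeats and thrombospondin repeats, and most end in a cystine knot, which *Wisp2* lacks. They bind integrins and heparan sulfate proteoglycans on cells, and growth factors such as TGF-β and BMPs. *Ctgf* and *Cyr61* are widely used readouts of Yap and Wwtr1, which drive them together with TEAD transcription factors, and *Ctgf* is a classic response gene of TGF-β in fibroblasts of injured tissue.

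The members lie on 4 mouse chromosomes (RefSeq, GRCm38.p6, the build named in the submitters' processing notes). *Ctgf* is at chr10:24595442-24598683 on the plus strand and *Wisp3* at chr10:39150970-39174376 on the minus strand, 14.55 Mb apart. *Nov* is at chr15:54745910-54753762 and *Wisp1* at chr15:66891369-66923201, both on the plus strand and 12.14 Mb apart. *Wisp2* is at chr2:163820752-163833146 on the plus strand. *Cyr61* is at chr3:145646971-145649985 on the minus strand, on the chromosome that also holds *Postn* and *Wwtr1*, but 91.26 Mb from *Postn* and 88.07 Mb from *Wwtr1*. In the canonical GENCODE M39 transcripts each member has 5 exons. The coding regions span 379 codons for *Cyr61*, 367 for *Wisp1*, 354 for both *Nov* and *Wisp3*, 348 for *Ctgf* and 251 for *Wisp2*, the member without the cystine knot.

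Promoter sequence from RefSeq was matched for 2 of the 6 members, *Cyr61* and *Wisp3*. The *Cyr61* promoter is shown because this gene is a standard readout of Yap and Wwtr1, the factors this model targets. The 250 bases before its start (GRCm38.p6, chr3:145649986-145650235, minus strand, written 5′ to 3′) hold a TEAD motif and a TATA box, both in capitals.

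Cyr61 promoter: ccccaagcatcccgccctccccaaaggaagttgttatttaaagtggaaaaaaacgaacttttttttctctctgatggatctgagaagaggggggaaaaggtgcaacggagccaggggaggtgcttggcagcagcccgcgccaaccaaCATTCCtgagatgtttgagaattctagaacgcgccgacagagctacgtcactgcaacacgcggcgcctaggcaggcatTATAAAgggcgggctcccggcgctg

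The motifs searched were GGAATG for TEAD, which reads CATTCC on the other strand, TATAAA for the TATA box and TGANTCA for AP-1, on both strands. In *Cyr61* the TEAD motif lies at bases -103 to -98 and the TATA box at bases -25 to -20 from the start, and TGANTCA was not in this window. The window of *Wisp3* (chr10:39163795-39164044) lies before a RefSeq start inside the gene span given above, not at its outer end, and held none of the 3 motifs. Of 32851 promoter windows of the same length, 12.6% held the TEAD letters, 12.4% the TATA letters and 6.75% the AP-1 letters. Each match is a description of letters in a window and not a measured binding site.

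Total estimated counts ranged from 13177888 to 14827579 per ventricle. Cardiomyocyte markers were abundant in each ventricle, with a summed level of 43125 to 57699 TPM (a transcript level scaled to gene length and library). Most of these markers are shared with atria, but *Myl2*, the ventricular myosin light chain gene, was at 8655 to 12257 TPM, while its atrial counterpart *Myl7* was at 18.1 to 611 TPM. Cre-negative ventricle 1 stood apart from the other 5. It had the lowest summed fibroblast markers (4711 TPM, against 6711 to 8616 in the others), the lowest myofibroblast markers (873 TPM, against 1800 to 2298) and the highest neutrophil markers (415 TPM, against 48.4 to 156). Atrial markers were uneven over the ventricles, with *Myl7* at 492, 306 and 61.1 TPM in Cre-negative and 611, 18.1 and 185 TPM in Cre-positive ventricles. Their sum was highest in Cre-positive ventricle 1, at 16600 TPM, of which *Nppa*, also a stress gene of ventricles, made up 14404 TPM. Fold changes of the members, of the targeted genes and of the gene lists are therefore also given without Cre-negative ventricle 1. Because these are whole ventricles, fewer cells of a type and less RNA per cell cannot be told apart.

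The targeted genes were first examined as a check of the labels. *Yap1*, which encodes Yap, had normalized counts of 1547, 1473 and 1419 in Cre-negative and 1615, 1436 and 1474 in Cre-positive ventricles, with a log2 fold change of 0.03 (SE 0.09, edgeR adjusted p = 0.935). *Wwtr1* had 1616, 1463 and 1604 against 1614, 1559 and 1661, with a log2 fold change of 0.05 (SE 0.08, edgeR adjusted p = 0.876). The groups overlapped for both genes by normalized counts. By TPM they did not, with Cre-positive ventricles higher, at 44.2, 46.3 and 44.4 against 50.7, 49.0 and 48.9 TPM for *Yap1* and 39.3, 39.6 and 43.6 against 43.9, 45.8 and 47.4 TPM for *Wwtr1*. Such a gap by TPM was found for 15.0% of all tested genes. TPM were higher in Cre-positive ventricles in general, with a median log2 fold change over all tested genes of 0.125 by limma on log2(TPM + 0.1). Without Cre-negative ventricle 1 the log2 fold changes were 0.06 (SE 0.08) and 0.07 (SE 0.08). *Postn*, whose promoter drives the recombinase, had 12157, 24639 and 26862 normalized counts against 12682, 14240 and 13486, a log2 fold change of -0.66 (SE 0.27, edgeR adjusted p = 0.714) that did not pass the test. Without Cre-negative ventricle 1, its lowest value, the groups did not overlap and *Postn* was lower in Cre-positive ventricles, with a log2 fold change of -0.94 (SE 0.08, edgeR adjusted p = 0.0182). Only Cre-positive mice carry the recombinase at the *Postn* locus, and the part of that allele in the *Postn* difference was not tested. No loss of *Yap1* or *Wwtr1* RNA was measured in whole ventricles, so these genes gave no check of the labels.

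The CCN genes differed widely in level, and their order was the same in every ventricle. *Ctgf* was highest, followed by *Cyr61*, *Wisp2*, *Wisp1*, *Nov* and *Wisp3*, in 6 of 6 ventricles by TPM. The deposited FPKM differ from TPM by a single factor within a ventricle, so they give the same order by construction. *Ctgf* had 3.25 to 4.30 times the TPM of *Cyr61* within a ventricle. *Cyr61* had 1.56 to 2.24 times that of *Wisp2*, *Wisp2* had 3.11 to 5.07 times that of *Wisp1*, and *Wisp1* had 2.85 to 7.31 times that of *Nov*. Across ventricles, only *Cyr61* and *Wisp2* overlapped among neighbours in this order, the lowest *Cyr61* level of 79.4 TPM lying under the highest *Wisp2* level of 99.6 TPM. Over the tested genes, the mean level of *Ctgf* stood at percentile 97.8, *Cyr61* at 92.2, *Wisp2* at 85.8, *Wisp1* at 54.9 and *Nov* at 25.0.

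**Figure D1:**
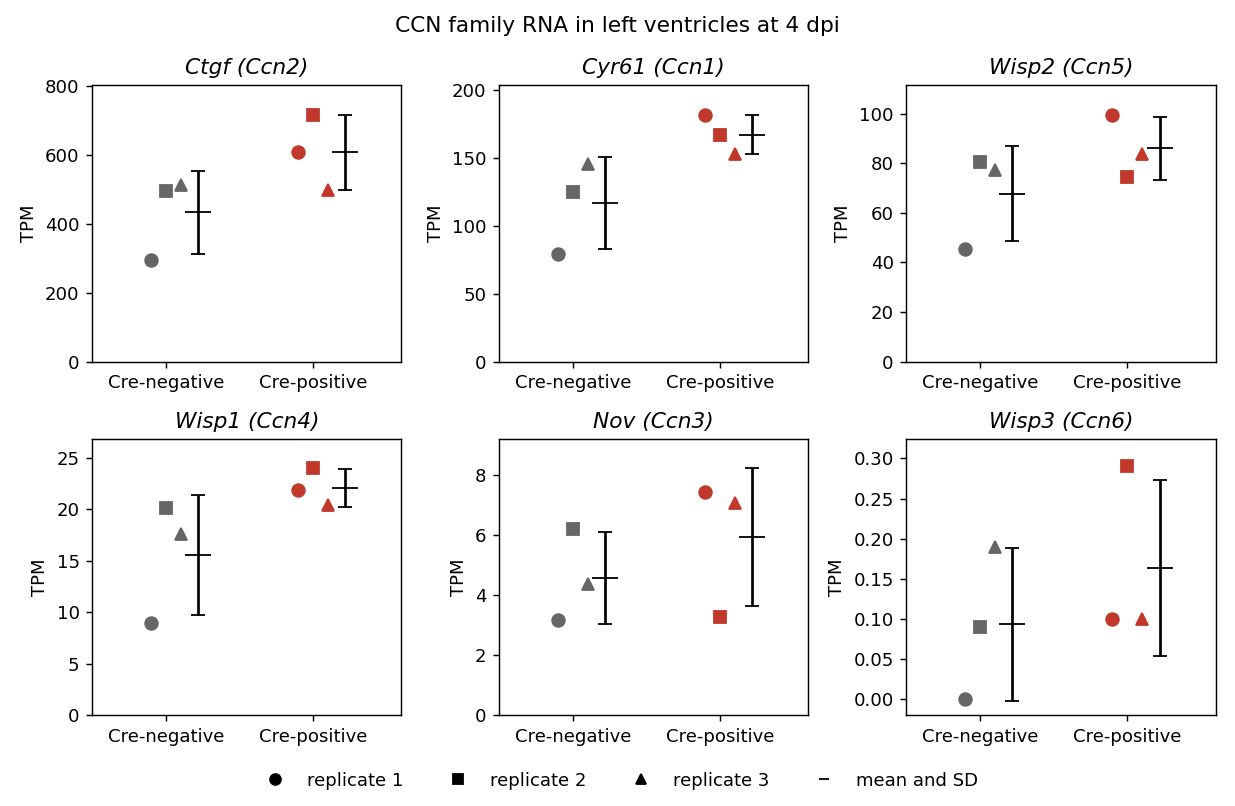
Level of each CCN gene in TPM (linear axes, a separate scale for each gene) in 3 Cre-negative and 3 Cre-positive left ventricles at 4 dpi, with points for ventricles, marker shapes for replicate numbers, and bars for mean and SD. Cre-negative replicate 1 is the lowest point for all 6 genes, and the genotypes do not overlap for *Cyr61* and *Wisp1*.

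*Ctgf* encodes connective tissue growth factor, a cofactor of TGF-β in matrix production. Its level was 295, 495 and 512 TPM in Cre-negative ventricles and 608, 716 and 497 TPM in Cre-positive ventricles. Cre-positive ventricle 3 lay within the Cre-negative range, so the groups overlapped. Mean levels were 434 ± 120 TPM (SD, n = 3) and 607 ± 110 TPM (SD, n = 3), and the two-sided exact permutation p was 0.2. The edgeR log2 fold change, Cre-positive over Cre-negative, was 0.38 (SE 0.20, 95% interval -0.08 to 0.84, adjusted p = 0.714), which corresponds to 1.30-fold (0.943 to 1.79).

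*Cyr61*, an immediate early gene whose protein promotes adhesion and angiogenesis, had 79.4, 125 and 145 TPM in Cre-negative ventricles and 182, 167 and 153 TPM in Cre-positive ventricles. All 3 Cre-positive values lay above all 3 Cre-negative values, by TPM and by normalized counts (1360, 1925 and 2221 against 2776, 2356 and 2226). The gap was narrow, the nearest normalized counts being 2221 and 2226. Mean levels were 117 ± 33.7 TPM (SD, n = 3) and 167 ± 14.5 TPM (SD, n = 3), with an exact permutation p = 0.1, the smallest that 3 ventricles against 3 allow. The edgeR log2 fold change was 0.42 (SE 0.18, 95% interval -0.003 to 0.84), or 1.34-fold (0.998 to 1.79). Its unadjusted p was 0.0515 by edgeR and 0.0381 by DESeq2, and its edgeR adjusted p was 0.714.

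*Wisp2*, a Wnt-responsive member that in several tissues opposes *Ctgf*, had 45.6, 80.4 and 77.3 TPM in Cre-negative and 99.6, 74.5 and 83.7 TPM in Cre-positive ventricles. The groups overlapped, with Cre-positive ventricle 2 below both Cre-negative ventricles 2 and 3. Mean levels were 67.8 ± 19.3 TPM (SD, n = 3) and 85.9 ± 12.7 TPM (SD, n = 3; exact permutation p = 0.3). The edgeR log2 fold change was 0.24 (SE 0.20, 95% interval -0.22 to 0.70, adjusted p = 0.737), or 1.18-fold (0.858 to 1.63).

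*Wisp1*, a target of β-catenin that promotes fibroblast proliferation, had 9.0, 20.1 and 17.6 TPM in Cre-negative and 21.8, 24.0 and 20.4 TPM in Cre-positive ventricles. The groups did not overlap by TPM, although the Cre-positive minimum of 20.4 TPM was close to the Cre-negative maximum of 20.1 TPM. They overlapped by normalized counts, which were 396, 788 and 689 against 853, 867 and 758. Mean levels were 15.6 ± 5.82 TPM (SD, n = 3) and 22.1 ± 1.81 TPM (SD, n = 3; exact permutation p = 0.1). The edgeR log2 fold change was 0.40 (SE 0.22, 95% interval -0.12 to 0.92, adjusted p = 0.714), or 1.32-fold (0.918 to 1.90).

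*Nov*, which encodes CCN3, a member that in several cell types restrains proliferation, was the least abundant of the tested members. It had 3.16, 6.19 and 4.37 TPM in Cre-negative and 7.43, 3.28 and 7.07 TPM in Cre-positive ventricles. The lowest values of both genotypes were close together, Cre-negative ventricle 1 and Cre-positive ventricle 2, and the groups overlapped. These levels rested on estimated counts of 54, 114 and 81 against 134, 59 and 124. The exact Poisson interval of the lowest count was 40.6 to 70.5 and that of the highest 112 to 159, intervals that cover counting error only. Mean levels were 4.57 ± 1.53 TPM (SD, n = 3) and 5.93 ± 2.30 TPM (SD, n = 3; exact permutation p = 0.4). The edgeR log2 fold change was 0.28 (SE 0.36, 95% interval -0.56 to 1.11, adjusted p = 0.822), or 1.21-fold, with an interval wide enough to hold both 0.680-fold and 2.16-fold.

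*Wisp3*, the least studied member, was at the limit of detection. It had estimated counts of 0, 1 and 2 in Cre-negative and 1, 3 and 1 in Cre-positive ventricles, 3 and 5 in all. The exact Poisson interval of a count of 0 reaches 3.69 counts. A level of 3 counts equals 0.228 counts per 1000000 in Cre-negative ventricle 1. Differences below that level were not detectable at this depth, and with counts this low larger ones can be missed too. Its level was at most 0.29 TPM, and no fold change is given.

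The makeup of the CCN transcript pool was similar in both genotypes. The summed level of the 6 members was 433, 727 and 757 TPM in Cre-negative and 918, 985 and 761 TPM in Cre-positive ventricles, so that the lowest Cre-positive total was just above the highest Cre-negative total. *Ctgf* made up 68.0 ± 0.316% (SD, n = 3) of this sum in Cre-negative and 68.1 ± 4.06% (SD, n = 3) in Cre-positive ventricles. *Cyr61* took 16.9 to 20.1%, *Wisp2* 7.57 to 11.1%, *Wisp1* 2.08 to 2.76%, *Nov* 0.333 to 0.929% and *Wisp3* at most 0.0294% over the 6 ventricles. Cre-positive ventricle 2 held the highest share of *Ctgf*, at 72.7%, and the lowest shares of *Cyr61*, *Wisp2* and *Nov*. The shares of these 3 genes in that ventricle were 16.9%, 7.57% and 0.333%.

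**Figure D2:**
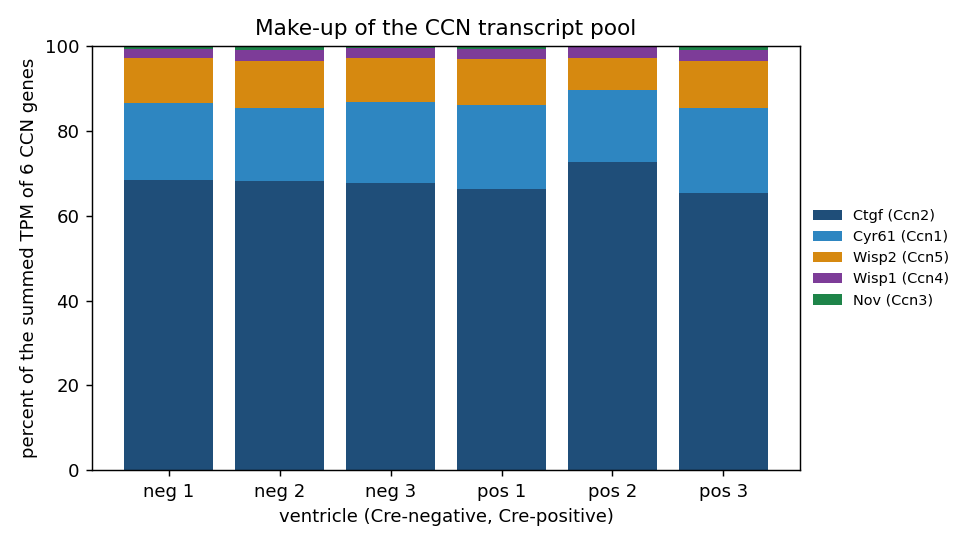
Share of each CCN gene in the summed TPM of the 6 members, in percent, for the 3 Cre-negative (neg) and 3 Cre-positive (pos) ventricles. *Ctgf* takes 65.3 to 72.7% in each ventricle, and *Wisp3*, at most 0.0294%, is too small to be drawn.

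As a family, the tested members had fold changes above 0, and none passed the test. The exceptions in sign were *Wisp2* and *Nov* when libraries were scaled to fibroblast markers, which moved the median of all genes to -0.339. These members lay 0.260 and 0.278 above that median, against 0.235 and 0.269 with TMM scaling. Such offsets stay similar by construction, since scaling shifts all genes by about the same amount. Of 5 tested members, 0 had an adjusted p under 0.05 by edgeR, where 1 of all 13817 tested genes did (0.00724%), the interferon-inducible guanylate binding protein gene *Gbp2b*. By DESeq2, 0 members and 5 genes passed. At an unadjusted p under 0.05, edgeR gave 0 of 5 members and 806 genes (5.83%), whereas DESeq2 gave 1 member, *Cyr61*, and 812 genes (5.88%). The groups did not overlap, with Cre-positive ventricles higher, for 1 member (*Cyr61*) by normalized counts, where 7.55% of tested genes showed this, and for 2 members (*Cyr61* and *Wisp1*) by TPM, where 15.0% did. In the edgeR fit with TMM scaling the 5 fold changes had a median log2 of 0.379, against a median of 0.0062 over all tested genes, of which 51.2% were above 0. The smallest member fold change, that of *Wisp2*, was reached or exceeded by 13.3% of tested genes. Members were measured in the same 6 ventricles and are not independent of each other.

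The differences were smaller without Cre-negative ventricle 1. It had the lowest TPM for 5 of 5 tested members, as it did for 51.4% of all tested genes, and the lowest normalized count for 4 of 5, as for 32.1% of tested genes. The exception was *Nov*, with 63.5 normalized counts there and 54.5 in Cre-positive ventricle 2. Without Cre-negative ventricle 1 the median log2 fold change of the members went from 0.379 to 0.157. The log2 fold change went to 0.24 for *Cyr61*, 0.20 for *Ctgf*, 0.16 for *Wisp1*, 0.11 for *Nov* and 0.06 for *Wisp2*, none of which passed the test. Cre-positive ventricle 1 was the highest for *Cyr61*, *Wisp2* and *Nov*. Without it the log2 fold change was 0.05 for *Nov*, 0.08 for *Wisp2*, 0.32 for *Cyr61*, 0.35 for *Ctgf* and 0.38 for *Wisp1*. Some other omissions gave larger values, among them 0.58 for *Nov* without Cre-positive ventricle 2, and 0.53 for *Nov*, 0.60 for *Wisp1* and 0.36 for *Wisp2* without Cre-negative ventricle 2. Others gave smaller values than with all ventricles. These were 0.14 for *Nov* without Cre-positive ventricle 3 and 0.22 without Cre-negative ventricle 3. Without Cre-positive ventricle 2 they were 0.27 for *Ctgf* and 0.36 for *Wisp1*. Fold changes stayed above 0 for each of the 5 members when any single ventricle was left out.

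**Figure D3:**
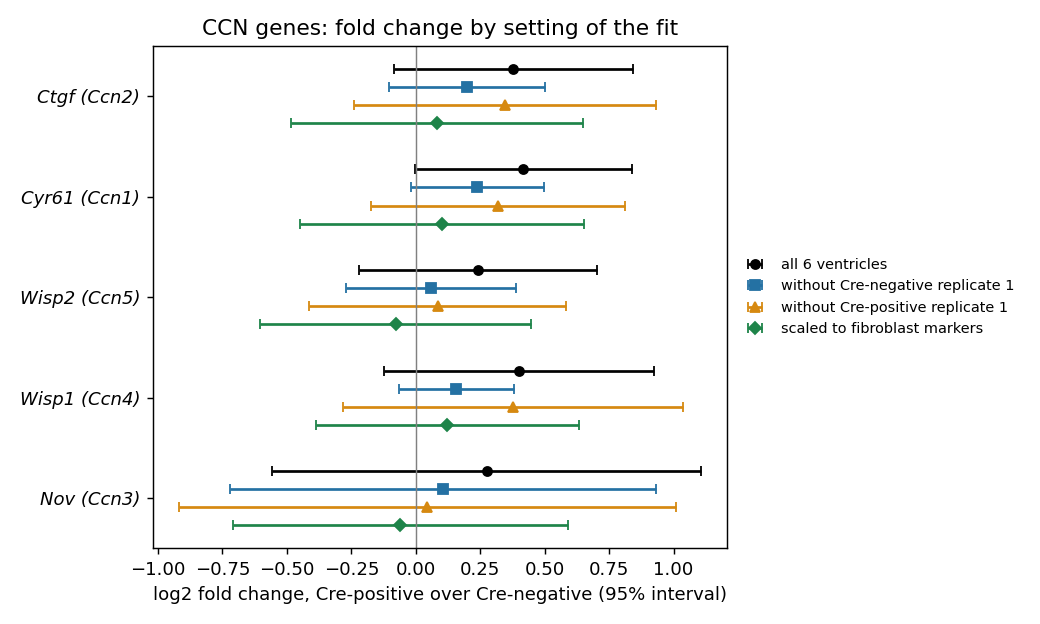
Log2 fold change, Cre-positive over Cre-negative, of the 5 tested CCN genes with its 95% interval by edgeR, for all 6 ventricles, without Cre-negative or Cre-positive replicate 1, and with libraries scaled to the fibroblast markers. All intervals drawn here include 0, while some settings not drawn gave intervals above 0 for *Cyr61* or *Wisp1*. *Wisp2* and *Nov* lie below 0 under the fibroblast scaling, which moved the median of all genes to -0.339.

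Fibroblasts are a main source of CCN proteins in injured tissue, and marker sums are given here beside the CCN values. Summed fibroblast markers were 4711 to 7501 TPM in Cre-negative and 7474 to 8616 TPM in Cre-positive ventricles, and 8 of 10 had a fold change above 0 (median log2 0.172). Myofibroblast markers summed to 873 to 2000 TPM and 2095 to 2298 TPM, with 7 of 8 above 0 (median log2 0.357). Cardiomyocyte markers summed to 47779 to 57699 TPM and 43125 to 46581 TPM, with 0 of 8 above 0 (median log2 -0.311). The genotypes did not overlap in the last 2 sums. Epicardial markers summed to 70.5 to 165 TPM and 136 to 232 TPM, overlapping between genotypes, with 7 of 7 above 0 (median log2 0.634). None of these markers passed the edgeR test. Without Cre-negative ventricle 1 the medians were 0.143 for fibroblast (7 of 10 above 0), 0.0907 for myofibroblast (6 of 8), -0.116 for cardiomyocyte (2 of 8) and 1.39 for epicardial markers (7 of 7). The other marker lists had medians of -0.898 for neutrophils, 0.548 for T cells, 0.0744 for macrophages, 0.0806 for atria, 0.0422 for endothelium and 0.000842 for smooth muscle and pericytes. These were 0.665, 0.260, -0.268, 0.571, 0.008 and 0.0439 without that ventricle. The part of cell composition in the CCN differences was not tested by these sums.

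Levels set against fibroblast markers gave smaller differences. The collagen genes *Col1a1*, *Col1a2* and *Col3a1* made up most of this marker sum, with log2 fold changes of 0.36, 0.39 and 0.30. The other fibroblast markers had -0.10 to 0.29, so these levels are largely relative to collagen RNA. Per 1000 TPM of fibroblast markers, *Ctgf* had 62.7, 66.0 and 76.3 TPM in Cre-negative and 71.1, 95.9 and 57.7 TPM in Cre-positive ventricles, so that the highest and the lowest were both Cre-positive. *Cyr61* had 16.9, 16.7 and 21.6 TPM against 21.2, 22.3 and 17.7 TPM. *Nov* had 0.671, 0.825 and 0.651 TPM against 0.869, 0.439 and 0.821 TPM. The log2 difference in this ratio was 0.105 for *Ctgf* (exact permutation p = 0.8), 0.155 for *Cyr61* (p = 0.3), -0.0282 for *Wisp2* (p = 1.0), 0.175 for *Wisp1* (p = 0.6) and -0.0681 for *Nov* (p = 0.9), and the groups overlapped for all 5. Without Cre-negative ventricle 1 these differences were 0.0458, 0.0979, -0.0948, 0.0176 and -0.111 in the same order. When libraries were scaled to the fibroblast markers within the edgeR fit, log2 fold changes were 0.12 for *Wisp1*, 0.10 for *Cyr61*, 0.08 for *Ctgf*, -0.06 for *Nov* and -0.08 for *Wisp2*. Relative to the median of all genes under this scaling the members were 0.462, 0.441, 0.421, 0.278 and 0.260 higher on the log2 scale, in the same order. With TMM scaling these offsets were 0.394, 0.411, 0.372, 0.269 and 0.235. A change of scaling shifts all genes by about the same amount, so the offsets stay similar by construction and are no separate result.

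**Figure D4:**
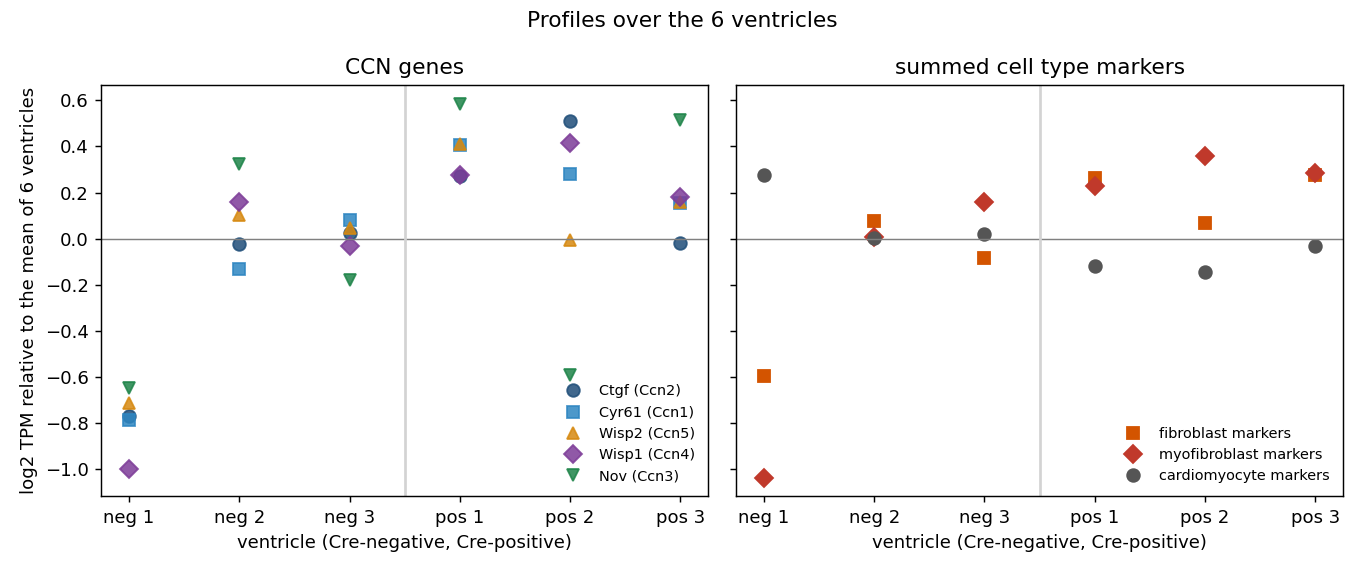
Log2 TPM of the 5 tested CCN genes (left) and of the summed cell type markers (right), relative to the mean over the 6 ventricles, in Cre-negative (neg) and Cre-positive (pos) ventricles. Cre-negative replicate 1 is low for the CCN genes and for fibroblast and myofibroblast markers and high for cardiomyocyte markers, and *Nov* is low in Cre-positive replicate 2 as well.

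The members did not follow a single profile. *Ctgf* and *Wisp1* were highest in Cre-positive ventricle 2, at 716 and 24.0 TPM. *Wisp2* and *Nov* had their second lowest levels in that same ventricle, at 74.5 and 3.28 TPM. Genes whose log2 CPM (counts scaled to library size) ran closest to each member over the 6 ventricles were taken by Pearson's r. For *Ctgf* they were *Ipo9* (r = 0.9962), *Slc7a7* (0.995) and *Zfp382* (0.9945), and for *Cyr61* they were *Dact3* (0.9986), *Dhx8* (0.9942) and *Gpr153* (0.9933). For *Wisp1* they were *Deaf1* (0.9966), *Tcf7l2* (0.9961) and *Pole2* (0.9959), for *Wisp2* *Qpctl* (0.9871), *Nmt1* (0.9821) and *Zfp574* (0.9789), and for *Nov* *Efs* (0.9951), *Cd55* (0.9866) and *Dcaf4* (0.9859). With 6 points that share libraries such values are common, and r was above 0.95 for 281 genes with *Wisp1*, 154 with *Ctgf*, 111 with *Cyr61*, 37 with *Wisp2* and 21 with *Nov*.

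Transcriptional regulators of CCN genes, which comprise Yap, Wwtr1, TEADs, Smads, SRF and its cofactors, and β-catenin with its partner, had fold changes near 0. Signs in this and the following lists hold for TMM scaling and were the same by count with DESeq2 size factors and upper quartile scaling, but not with scaling to fibroblast markers. There the 5 lists had medians of -0.257 to -0.203, which were 0.0814 to 0.135 above the median of all genes at -0.339. These offsets change little with scaling by construction. Of 15 tested, 14 were above 0 and 1 below, with a median log2 of 0.098 (0.0622 without Cre-negative ventricle 1), and 0 passed the edgeR test at an adjusted or an unadjusted p under 0.05. The largest were those of *Mkl1*, an actin-regulated cofactor of SRF (log2 fold change 0.18, SE 0.12), and *Tead3*, a DNA-binding partner of Yap (0.16, SE 0.08). The most abundant were *Ctnnb1*, which encodes β-catenin (211 against 245 TPM; log2 fold change 0.11, SE 0.12), and *Srf* (94.7 against 93.2 TPM; -0.14, SE 0.14). Without Cre-negative ventricle 1 the log2 fold changes were 0.07 for *Mkl1*, 0.13 for *Tead3*, 0.02 for *Ctnnb1* and 0.0016 for *Srf*, and 14 of 15 were again above 0.

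Among ligands that induce CCN genes and the receptors of those ligands, 7 of 11 tested genes had a fold change above 0 and 4 below, with a median log2 of 0.134 (0.0539 without Cre-negative ventricle 1), and 0 passed at an adjusted p under 0.05. *Wnt1* had too few counts for the test. *Edn1*, which encodes endothelin 1, had 6.23, 8.93 and 10.6 TPM in Cre-negative and 16.0, 13.7 and 13.1 TPM in Cre-positive ventricles, with no overlap between groups. Its log2 fold change was 0.62 (SE 0.19, unadjusted p = 0.0107, edgeR adjusted p = 0.714). *Agt*, the precursor of angiotensin II, had 27.9, 7.64 and 6.75 TPM against 8.96, 5.93 and 8.54 TPM, so that its log2 fold change of -1.01 (SE 0.58) came with a single high value in Cre-negative ventricle 1. The TGF-β ligand genes with the highest levels were *Tgfb1* (143 against 165 TPM; log2 fold change 0.11, SE 0.14) and *Tgfb3* (67.5 against 89.0 TPM; 0.30, SE 0.21). At an unadjusted p under 0.05 there were 3 of 11 (5.83% over all tested genes), *Edn1* and, named after their values were seen, *Tgfb2* (log2 fold change 0.48, SE 0.16) and the angiotensin receptor gene *Agtr1a* (-0.47, SE 0.19). With Cre-negative ventricle 1 left out, 8 of 11 were above 0, and the log2 fold changes were 0.48 for *Edn1*, 0.31 for *Tgfb2*, -0.31 for *Agtr1a*, 0.05 for *Agt*, -0.04 for *Tgfb1* and 0.07 for *Tgfb3*.

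Of 16 CCN receptor and coreceptor genes tested, 14 had a fold change above 0 and 2 below, with a median log2 of 0.139 (0.106 without Cre-negative ventricle 1), and 0 passed at an adjusted p under 0.05. The most abundant were the integrin genes *Itgb1* (301 against 354 TPM; log2 fold change 0.12, SE 0.11) and *Itgb5* (178 against 214 TPM; 0.16, SE 0.18). The largest fold change was that of the platelet integrin gene *Itga2b*, which had 5.29, 2.33 and 1.91 TPM in Cre-negative and 2.64, 1.02 and 1.63 TPM in Cre-positive ventricles (log2 fold change -0.98, SE 0.52), with its highest value in Cre-negative ventricle 1. At an unadjusted p under 0.05 there were 4 of 16 (5.83% over all tested genes), named after their values were seen. These were *Itgav* (log2 fold change 0.42, SE 0.15), *Itgb3* (0.26, SE 0.10) and *Itga5* (0.24, SE 0.10), subunits of integrins that bind CCN proteins and fibronectin, and *Notch1* (0.22, SE 0.08), a receptor that CCN3 binds. With Cre-negative ventricle 1 left out, 11 of 16 were above 0, and the log2 fold changes were -0.32 for *Itga2b*, 0.10 for *Itgb1*, -0.04 for *Itgb5*, 0.27 for *Itgav*, 0.27 for *Itgb3*, 0.19 for *Itga5* and 0.19 for *Notch1*.

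Of 12 binding partners tested, 8 were above 0 and 4 below, with a median log2 of 0.111 (0.102 without Cre-negative ventricle 1 and 0.224 without Cre-negative ventricle 2), and 0 passed at an adjusted p under 0.05. The small proteoglycan genes *Bgn* (2096 against 2608 TPM; log2 fold change 0.21, SE 0.16) and *Dcn* (778 against 803 TPM; -0.07, SE 0.17) had the highest levels. The largest fold changes were those of the proteoglycan gene *Acan*, which was at most 1.19 TPM (log2 fold change 0.73, SE 0.67), and of *Fn1*, which encodes fibronectin (0.49, SE 0.24). *Fn1* had 257, 499 and 580 TPM against 673, 685 and 643 TPM, with no overlap between groups and, like the CCN genes, its lowest level in Cre-negative ventricle 1. At an unadjusted p under 0.05 there was 1 gene of 12 (5.83% over all tested genes), *Vcan*, which encodes versican (log2 fold change 0.35, SE 0.12) and was named after its value was seen. With Cre-negative ventricle 1 left out, 9 of 12 were above 0, and the log2 fold changes were 0.22 for *Acan*, 0.24 for *Fn1*, 0.23 for *Vcan*, 0.07 for *Bgn* and 0.05 for *Dcn*.

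Yap targets outside the CCN family were also examined, since *Ctgf* and *Cyr61* belong to the same regulon. Of 19 tested, 14 had a fold change above 0 and 5 below, and 0 passed at an adjusted p under 0.05. The median log2 was 0.0904 (0.0806 without Cre-negative ventricle 1 and 0.0537 without Cre-positive ventricle 1). *Foxf2* had too few counts for the test. The most abundant were *Ankrd1*, a cardiac ankyrin repeat protein gene and common Yap readout (2243 against 2477 TPM; log2 fold change 0.03, SE 0.15), and the matrix gene *Ccdc80* (195 against 216 TPM; 0.03, SE 0.16). The largest fold changes were those of *Tgfb2* (18.4 against 27.7 TPM; 0.48, SE 0.16) and *Igfbp3*, which encodes a carrier of insulin-like growth factors (86.8, 68.0 and 65.1 against 99.7, 111 and 83.8 TPM; 0.29, SE 0.17). At an unadjusted p under 0.05 there were 3 of 19 (5.83% over all tested genes), *Tgfb2* and, named after their values were seen, the Hippo kinase gene *Lats2* (log2 fold change 0.23, SE 0.09) and *Crim1* (0.20, SE 0.09). With Cre-negative ventricle 1 left out, 13 of 19 were above 0, and the log2 fold changes were 0.31 for *Tgfb2*, 0.49 for *Igfbp3*, 0.20 for *Lats2*, 0.21 for *Crim1*, -0.05 for *Ankrd1* and 0.19 for *Ccdc80*.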

How the data were processed

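Members and gene lists were chosen with earlier results of these data known. Per the labels, RNA was extracted with TRIzol from left ventricles and libraries were made by BGI Americas. The submitters' processing notes name Bowtie2 2.2.5, RSEM 1.2.12 and GRCm38.p6; the annotation and the use of strand are not given in the sources used here. The authors deposited an expected count (not normalized; 11.46% were not whole within 0.001) per gene and ventricle. The authors also deposited FPKM and TPM values, both corrected for gene length and sequencing depth, with TPM adding up to 1000000 in a ventricle. Their own comparison of the genotypes (fold changes, p-values and q-values) was not used.

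Expected counts were rounded, filtered with filterByExpr (minimum count 10, minimum total 15) and scaled by TMM, and genotypes were compared with the quasi-likelihood test of edgeR 4.0.16 in R 4.3.3 without covariates, with Benjamini-Hochberg adjustment over 13817 genes and a threshold of 0.05. Standard errors came from the F statistic, and normalized counts are at a mean library size of 14264187. TPM served for levels between genes. Exact two-sided permutation tests (scipy 1.17.1, Python 3.11.15) cannot give a p under 0.1 here. Named genes were all members, *Yap1*, *Wwtr1* and *Postn*, in each list around the family the 2 tested genes with the largest fold change and the 2 with the highest mean TPM, and for each member the 3 genes with the highest Pearson's r of log2 CPM (prior count 2). The values of 1 gene that this rule names are not reported here. Alternatives were other filters and scalings, unrounded counts, DESeq2 1.42.0, limma 3.58.1 on log2 TPM, a replicate block, each ventricle left out, and scaling to fibroblast markers. Total counts were 13177888, 14507293 and 14514799 in Cre-negative and 14410878, 14827579 and 14202093 in Cre-positive ventricles, where 3 counts equal 0.202 to 0.228 counts per 1000000. Figures were drawn with matplotlib 3.10.9.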

Additional observations from a re-analysis of the deposited data

How the results depend on the processing

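No alternative moved a CCN member past the threshold. Over the 16 alternatives, the log2 fold changes of *Ctgf*, *Cyr61* and *Wisp1* stayed above 0 in all 16, and those of *Wisp2* and *Nov* in 15. The exception was scaling to the fibroblast markers, with -0.0785 for *Wisp2* (edgeR adjusted p = 0.845) and -0.0601 for *Nov* (adjusted p = 0.902), while the median of all genes was at -0.339. Adjusted p-values ranged from 0.509 to 0.958 for *Ctgf* and *Cyr61*, 0.529 to 0.958 for *Wisp1*, 0.590 to 0.958 for *Wisp2* and 0.686 to 0.981 for *Nov*. Leaving out each ventricle gave log2 fold changes of 0.198 to 0.504 for *Ctgf*, 0.239 to 0.578 for *Cyr61*, 0.157 to 0.601 for *Wisp1*, 0.0585 to 0.359 for *Wisp2* and 0.0452 to 0.582 for *Nov*. The number of genes that passed the test was 1 in the edgeR fit and 5 with DESeq2, 2 with limma on log2(TPM + 0.1) and on log2(TPM + 1), 35 with scaling to the fibroblast markers, and 0 to 2 when a ventricle was left out, and the cause was not tested. Limma on TPM moved the median of all genes to 0.125 and 0.109.

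The log2 ratio to fibroblast markers ranged, with each ventricle left out, from -0.0890 to 0.278 for *Ctgf*, 0.0887 to 0.277 for *Cyr61*, 0.0176 to 0.267 for *Wisp1*, -0.109 to 0.0310 for *Wisp2* and -0.246 to 0.246 for *Nov*. Against myofibroblast markers in place of fibroblast markers it was -0.0697 for *Ctgf*, -0.0197 for *Cyr61*, -0.203 for *Wisp2*, 0.000365 for *Wisp1* and -0.243 for *Nov*. With each ventricle left out, the median log2 fold change ranged from 0.0622 to 0.141 for regulators (0.098 with all), 0.0539 to 0.191 for inducing ligands and their receptors (0.134), 0.106 to 0.175 for CCN receptors (0.139), 0.102 to 0.224 for binding partners (0.111, the highest without Cre-negative ventricle 2) and 0.0537 to 0.123 for the other Yap targets (0.0904, the lowest without Cre-positive ventricle 1). It was 0.0735 for inducing ligands and their receptors and 0.169 for binding partners without Cre-positive ventricle 1. Whether the replicate numbers pair the ventricles was not settled. Ventricles were compared after the average of their group was taken away. Same-numbered ones then correlated at 0.354, 0.0726 and -0.0318, and differently numbered ones at -0.368 to 0.354. With 3 ventricles per genotype these values depend on each other, so they cannot decide the question. With the replicate block 0 genes passed and 1217 had an unadjusted p under 0.05, and the members had log2 fold changes of 0.446 (*Wisp1*), 0.438 (*Cyr61*), 0.392 (*Ctgf*), 0.249 (*Wisp2*) and 0.231 (*Nov*). *Wisp3* had too few counts for a value, and 3 ventricles per genotype and the low counts of *Nov* limit the precision.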
